A study of Mus musculus with 7 samples.

Results

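The genes described here are the clustered histone genes of the mouse, those whose symbol starts with Hist1h, Hist2h, Hist3h or Hist4h and that had at least 10 UMIs over the 7 libraries of the series. A UMI (unique molecular identifier) marks 1 captured RNA molecule. Of 31053 genes in the count tables, 67 had such a symbol and 61 met the rule. The 2 members just inside the threshold were Hist1h3h with 10 UMIs and Hist1h2ao with 15, and the 2 genes just outside it were Hist1h1t with 8 and Hist1h2ah with 7. The members code for 5 linker histones H1, 16 H2A, 16 H2B, 12 H3 and 12 H4 proteins. The Hist1 cluster on chromosome 13 holds 48 of them, the Hist2 cluster on chromosome 3 holds 10, the Hist3 cluster on chromosome 11 holds 2 and Hist4 on chromosome 6 holds 1. The members were thus chosen by their symbol and their total UMI count, and those totals are a description.

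The series is a droplet single-cell RNA survey of postnatal mouse brain that follows oligodendrocyte precursor cells (OPCs) over developmental time. The adult group has 3 libraries from P60 CD1 mice: cortex, white matter (WM) directly above the lateral ventricles with corpus callosum and V-SVZ, and grey matter (GM) above the cortical white matter. The early postnatal group has 4 libraries: P7 SVZ, microdissected from the V-SVZ (ventricular-subventricular zone), its dorsal and lateral walls, of C57BL/6 mice, and cortex at P2, P7 and P15 from CD1 mice. The "cortex" dissections ran dorsally from the lateral ventricles and so include V-SVZ, white and grey matter. All libraries were made from polyadenylated RNA with Chromium 3' kits. Nothing in the labels says which libraries come from separate animals, so the p-values below measure the spread between these libraries.

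Replication-dependent histone mRNAs are made in S phase, when new nucleosomes are assembled on replicated DNA. They are unusual among animal mRNAs in lacking a poly(A) tail: they end shortly after a conserved 3' stem-loop, which binds the stem-loop binding protein SLBP and is cut by a U7 snRNP-guided complex. Some clustered genes also make polyadenylated transcripts that run past the stem-loop, which are known from differentiated cells. A kit that primes on poly(A) therefore sees only the RNA of these genes that carries a tail or an A-rich stretch.

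The stem-loop sequences of 10 members, the DNA-strand form of the mRNA's 3' end, are shown because the end of the transcript decides what such a kit can prime on. Capitals mark the 16-base stem-loop, with 6 bases of flank on each side where the transcript model reaches that far.
Hist1h2ap: aaaaaaGGCTCTTTTCAGAGCCatc
Hist1h2ae: aacaaaGGCTCTTTTCAGAGCCattcac
Hist1h1e: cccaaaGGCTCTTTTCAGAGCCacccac
Hist1h1c: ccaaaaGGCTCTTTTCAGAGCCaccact
Hist3h2a: accaaaGGCTCTTTTCAGAGCCacccac
Hist3h2ba: cccaaaGGCTCTTTTCAGAGCCaccttc
Hist1h3c: aaaaaaGGCTCTTTTAAGAGCCacctaa
Hist1h4d: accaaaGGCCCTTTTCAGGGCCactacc
Hist1h4h: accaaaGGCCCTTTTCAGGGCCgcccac
Hist1h4i: cttaaaGGCCCTTTTTAGGGCCaccaca

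The sequences come from the GENCODE M21 transcripts (build GRCm38), in which all 61 members were found by gene ID. A stem of 6 paired bases around a loop of 4 was found in 43 of the 61 members, in the longest annotated coding transcript of each. The first 6 stem-loops shown share 1 form, the H4 genes Hist1h4d and Hist1h4h share a second, and Hist1h3c and Hist1h4i each differ from these in the loop. The annotated Hist1h2ap transcript ended 3 bases after the stem-loop, whereas that of Hist1h2ae ran on for 151 bases, Hist3h2ba for 169, Hist1h4d for 770, Hist1h1c for 840, Hist1h1e for 1153 and Hist3h2a for 1643. The polyadenylation signal AATAAA stood in the last 50 bases of 11 members, among them Hist3h2ba, Hist3h2a, Hist1h1c and Hist1h2ae. No stem-loop was found for Hist1h1b and Hist1h2bc. The annotated Hist1h1b transcript has 0 bases after its coding part, so none could be found there. Hist1h2ap had 16 A in its most A-rich window of 20 bases.

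Near-identical copies limit which gene a read can be given to. In 23 of the 61 members at least 50% of the 91-base windows of the transcript also occurred in a transcript of another gene. These were 0 of 5 H1, 10 of 16 H2A, 5 of 16 H2B, 6 of 12 H3 and 2 of 12 H4 genes. Hist1h2ap shared 92.3% of its windows, with Hist1h2ao, Hist1h2ag and Hist1h2ad, so its values may hold reads of those copies. Hist2h3c1 shared 100% of its windows, Hist2h2aa1 88.5% and Hist1h2ab 53.5%, and values of these genes are likewise uncertain. Hist1h2ae shared 31.8%, Hist3h2ba 8.21% and Hist1h1b 0%. The annotated span of Hist1h2be (chr13:23583670-23621124, minus strand) covers part of Hist1h1e (chr13:23620629-23622558, minus strand), so reads of these 2 genes may be shared as well.

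Promoters are shown for 3 members that behaved differently with division below: the linker histone gene Hist1h1b (chr13:21780576-21780875, minus strand), the H2A gene Hist1h2ae (chr13:23571171-23571470, minus strand) and the H2B gene Hist3h2ba (chr11:58948661-58948960, plus strand). Each runs from 250 bases before to 50 bases after the start in RefSeq (GRCm38.p6), and capitals mark the letters of 4 motifs, named in the next paragraph, on either strand. The Hist1h2ae window also covers the start of the H2B gene Hist1h2bg (chr13:23571396-23572013, plus strand). Which of these genes its marked motifs belong to was not tested.
Hist1h1b promoter: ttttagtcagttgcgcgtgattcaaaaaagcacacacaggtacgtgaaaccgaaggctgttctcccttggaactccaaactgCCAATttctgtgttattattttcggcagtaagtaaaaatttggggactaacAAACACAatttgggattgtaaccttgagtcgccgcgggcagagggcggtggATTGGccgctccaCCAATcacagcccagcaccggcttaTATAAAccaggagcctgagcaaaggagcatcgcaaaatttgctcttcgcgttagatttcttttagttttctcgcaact
Hist1h2ae promoter: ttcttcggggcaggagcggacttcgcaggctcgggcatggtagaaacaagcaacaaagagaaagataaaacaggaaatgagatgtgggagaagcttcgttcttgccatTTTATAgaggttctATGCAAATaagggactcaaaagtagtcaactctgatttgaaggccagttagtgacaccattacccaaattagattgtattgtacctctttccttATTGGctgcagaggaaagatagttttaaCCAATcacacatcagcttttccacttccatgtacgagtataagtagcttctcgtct
Hist3h2ba promoter: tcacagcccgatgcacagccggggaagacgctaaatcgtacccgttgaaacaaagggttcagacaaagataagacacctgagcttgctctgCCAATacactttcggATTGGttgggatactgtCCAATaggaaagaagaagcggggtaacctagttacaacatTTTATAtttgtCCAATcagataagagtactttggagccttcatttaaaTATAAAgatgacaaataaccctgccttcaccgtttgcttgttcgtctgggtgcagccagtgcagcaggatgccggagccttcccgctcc

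CCAAT, the box bound by NF-Y, was found on either strand in 46 of the 54 member promoters given (85.2%), against 37.4% of all 32544 promoters of the same length. It was in 100% of the H1, H2A, H2B and H3 promoters and in 3 of 11 H4 promoters. The TATAAA box was in 57.4% of member promoters, against 13.6% of all. The octamer ATTTGCAT, a site of POU factors such as Oct-1, was in 5 of 15 H2A and 5 of 13 H2B promoters and in 0 of 26 others, against 1.75% of all promoters. AAACACA, an element named from H1 genes, was in 4 of 5 H1 promoters, against 7.20% of all. Each motif was searched on its own, so matches may overlap. Some H2A and H2B genes lie back to back and closer than the window, such as Hist1h2ae and Hist1h2bg. A motif between such genes can count for both, so these shares are not over independent promoters. A match is a run of letters and no more.

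The P7 SVZ library stood apart from the other 6 before any comparison. In CPM (UMIs of a gene scaled to 1000000 UMIs of the library or sum) it had 19580 of Gm42418, a gene whose span overlaps ribosomal RNA, against 71.5 to 388 in the other libraries, and 90671 CPM of mitochondrial genes, against 24063 to 54788. Its clustered histone genes took 1708 CPM, against 244.5 to 1238 elsewhere, and it was the only C57BL/6 library. Strain, region and library cannot be told apart for it, so tests and class levels that include it are also given without it, except for the pooled phase test, the family medians, the pooled shares of cells, the bins of list UMIs by phase and the other gene lists, which all hold it. Pairs of the other 6 libraries shared 2 to 28 cell barcodes, and pairs with P7 SVZ shared 0 or 1. Whether P7 SVZ was made with another kit version was not tested, so the kit may differ along with strain and region. After filtering, 20723 of 25747 barcodes remained, with library medians of 2791 to 9541 UMIs per cell and library totals of 10074763 to 45668007 UMIs. The cells fell into 47 clusters, built without histone and cell-cycle genes, of which 40 were named from marker genes and 7 with 1962 cells were left unnamed.

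Over kept cells the members had 159227 UMIs, and 12 of them held 87.1%. Hist3h2ba, an H2B gene at chr11:58948920-58949533, had 30060 UMIs or 18.9%. Hist1h2bc, an H2B gene of 2 exons at chr13:23684199-23692908, had 25176, and the H2A genes Hist1h2ap (chr13:21833026-21833507) and Hist3h2a (chr11:58954685-58956830) had 16250 and 14410. The linker histone genes Hist1h1e, Hist1h1c (chr13:23738808-23740367), Hist1h1b (chr13:21779883-21780625) and Hist1h1d (chr13:23553262-23560686) had 12240, 11864, 10454 and 1967. Hist1h2ae (chr13:23570517-23571220) had 5902, and the H4 genes Hist1h4d (chr13:23581598-23582735), Hist1h4i (chr13:22040636-22041362) and Hist1h4h (chr13:23531050-23531519) had 5159, 2899 and 2286. Of the 61 members, 57 had a single exon. These counts depend on how well each 3' end is primed and do not rank the genes by transcript number.

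Below, CPM are taken over the UMIs summed over a class in a library. The members' summed level was highest in neuroblast-like cells, with a median of 1554 CPM over 6 libraries (1441 to 2292). Mature oligodendrocyte-like cells, which have left the cell cycle, came next among named classes of several libraries, with 2087 in P15 cortex, 1131 in P60 cortex, 1126 in P60 WM and 920 CPM in P60 GM. Excitatory intermediate precursor-like cells had a median of 979 CPM in 3 libraries, astrocyte-like cells 795 in 7 and OPC-like cells 711 in 7. Committed OPC and newly formed oligodendrocyte-like cells had 581 CPM, microglia-like cells 576, excitatory neuron-like cells 373 and endothelial-like cells 285. The neuroblast-like range lay above those of the excitatory intermediate precursor-like, astrocyte-like, committed, microglia-like, excitatory neuron-like and endothelial-like cells. It overlapped the mature oligodendrocyte-like range. Through P7 SVZ alone it also overlapped the ranges of OPC-like, neural precursor-like (1465 CPM there) and pericyte-like cells (1968 CPM there). The ranges of the middle classes overlapped each other. Neural precursor-like cells had a median of 603 CPM in 4 libraries, and 433 CPM without P7 SVZ. Without P7 SVZ the medians were 1563 CPM in neuroblast-like, 956 in excitatory intermediate precursor-like, 724 in astrocyte-like, 687 in OPC-like, 568 in committed and 527 CPM in microglia-like cells.

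**Figure D1:**
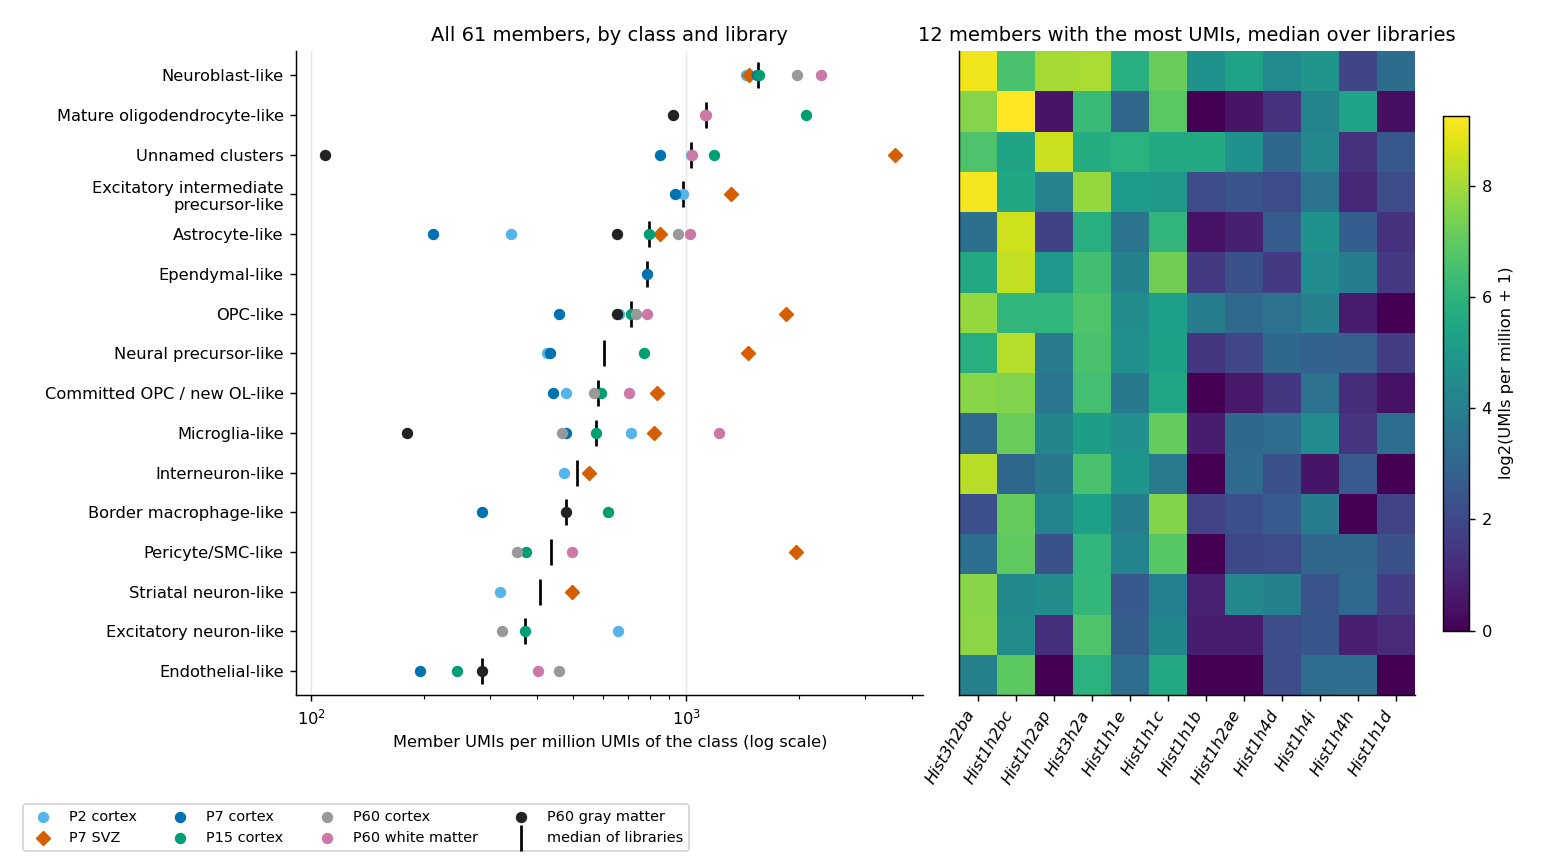
Left, CPM of all 61 members together for each class (rows) in each library (points, with a diamond for P7 SVZ and a bar for the median). Right, the median over libraries for the 12 members with the most UMIs, as log2(CPM + 1). Neuroblast-like cells have the highest named median, 1554 CPM, and the P7 SVZ point of OPC-like cells lies at 1847 CPM, above the 459 to 788 CPM of the other 6 libraries.

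In OPC-like cells the summed level was 663 CPM in P2 cortex, 1847 in P7 SVZ, 459 in P7 cortex, 711 in P15 cortex, 733 in P60 cortex, 788 in P60 WM and 656 in P60 GM. Without P7 SVZ the median was 687 CPM (459 to 788), so P7 SVZ alone lay above that range. By family, the OPC-like medians were 326 CPM for H2B, 233 for H2A, 82.7 for H1, 27.5 for H4 and 11.6 for H3, while P7 SVZ had 332, 543, 685, 192 and 94.7 CPM in the same order.

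Single members followed cell classes in different ways. Hist3h2ba had its highest medians in excitatory intermediate precursor-like (558 CPM) and neuroblast-like cells (538 CPM), 219 CPM in OPC-like cells and 190 CPM in mature oligodendrocyte-like cells, against 9.56 CPM in astrocyte-like and 8.17 in microglia-like cells. Its neighbour Hist3h2a had 269 CPM in neuroblast-like and 103 CPM in OPC-like cells. Hist1h2bc ran the other way, with 612 CPM in mature oligodendrocyte-like cells, 380 in astrocyte-like and 298 in neural precursor-like cells, against 68.2 in OPC-like and 22.9 in excitatory neuron-like cells. Among classes of several libraries Hist1h1c was highest in border macrophage-like (185 CPM), neuroblast-like (145 CPM) and microglia-like cells (134 CPM), and ependymal-like cells of 1 library had 152 CPM. Hist1h4h had 38.9 CPM in mature oligodendrocyte-like cells. Hist1h2ap had 257 CPM in neuroblast-like and 68.0 CPM in OPC-like cells, and 0.41 CPM in mature oligodendrocyte-like cells, where Hist1h1b was at 0. Without P7 SVZ, Hist3h2ba had 530 CPM in excitatory intermediate precursor-like, 548 in neuroblast-like, 6.23 in astrocyte-like and 6.92 CPM in microglia-like cells. Hist1h2bc then had 199 CPM in neural precursor-like cells, Hist1h1c 177 in neuroblast-like and 195 in microglia-like cells, and Hist1h2ap 275 in neuroblast-like and 42.6 CPM in OPC-like cells.

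Cells outside the cycle were compared between each class and OPC-like cells of the same libraries with edgeR's quasi-likelihood test, the library as a block and Benjamini-Hochberg adjustment over all genes tested. Cells were called non-cycling when they had 0 UMIs of 35 S-phase and 42 G2/M genes after each cell was thinned to 2000 UMIs. In mature oligodendrocyte-like cells, 9 members passed the low-count filter, 6 were higher than in OPC-like cells and 0 lower, where 16.9% of all genes tested were higher and 17.5% lower. Hist1h2bc had 1061, 703 and 606 CPM in the mature class in P15 cortex, P60 cortex and P60 WM, against 69.8, 77.6 and 60.9 CPM in OPC-like cells (log2 fold change 4.20, SE 0.36, adjusted p = 7.03e-08). Every mature value was several times above every OPC-like one. Hist1h4h had 48.3, 53.5 and 34.7 CPM, against 1.18, 0 and 0 CPM, so no fold is given. Hist2h2ac, an H2A gene, had 27.1, 19.6 and 11.3 CPM, against 0 in all 3 OPC-like sums, and has no fold either. Hist1h4h, Hist2h2ac and Hist1h2be, given next, passed the filter through the mature class alone. The count of 6 is thus a description of the members that passed. Hist1h2be, whose span overlaps Hist1h1e, had 52.8, 12.5 and 15.6 CPM, against 2.36, 0 and 0 CPM. Hist1h1c (log2 fold change 2.75) was higher in 3 of 3 libraries and the near-identical copy Hist2h3c1 (2.01) in 2 of 3. Hist3h2a had 76.7, 55.3 and 85.0 CPM, against 124, 233 and 162 CPM, and did not pass (adjusted p = 0.23). Without P15 cortex 5 members were tested, with 3 higher and 1 lower.

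Hist1h2bc and Hist1h1c were also higher than in OPC-like cells in astrocyte-like (log2 fold change 2.65 and 1.75), committed OPC and new oligodendrocyte-like (2.16 and 1.09), microglia-like (1.65 and 3.37) and neural precursor-like cells (3.26 and 1.89). In astrocyte-like cells 4 of 9 members tested were higher and 2 lower, against 22.9% and 20.3% of all genes, with 7 higher without P2 cortex, 5 without P60 GM or P60 WM, 3 without P7 SVZ or P7 cortex and 2 without P15 cortex. In committed OPC and new oligodendrocyte-like cells 4 of 9 were higher and 0 lower, against 21.7% and 20.1%, with 2 higher without P15 cortex and 3 of 7 without P7 SVZ. In microglia-like cells 5 of 9 were higher and 2 lower, against 28% and 27.5%, with 3 higher without P15 cortex or without P60 WM, and 5 of 8 higher and 2 lower without P7 SVZ. In neural precursor-like cells 5 of 8 were higher and 1 lower, against 21.3% and 19.9%, with 1 of 4 higher without P7 SVZ. Hist1h4i was higher in astrocyte-like (2.30), microglia-like (2.47) and committed cells (1.80), and Hist2h3c1 in astrocyte-like (1.95) and committed cells (1.65). Hist1h1d (3.31) was higher in microglia-like cells, and Hist1h2ac (2.53), Hist1h2ap (1.32) and Hist1h1e (1.09) in neural precursor-like cells. Hist1h1e was also called in microglia-like cells (1.16), where 5 of 6 libraries were higher and P7 SVZ had 81.0 CPM, against 128 CPM in its OPC-like cells. These counts rest on 8 or 9 members in each class. Members scarce in OPC-like cells, such as Hist1h1d, could pass the filter through the other class alone, so the counts describe the members that passed.

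Hist3h2ba was lower in astrocyte-like than in OPC-like cells, with a log2 fold change of -4.60 (SE 0.39, adjusted p = 6.69e-08). In library order from P2 to P60 GM, astrocyte-like cells had 8.46, 27.4, 8.65, 8.64, 0.709, 0 and 0 CPM, against 177, 229, 214, 285, 336, 294 and 174 CPM in OPC-like cells. The highest astrocyte-like value, in P7 SVZ, was under every OPC-like value. It was also lower in microglia-like (-4.63) and neural precursor-like cells (-1.94), and Hist3h2a was lower in astrocyte-like (-0.80) and microglia-like cells (-1.51). In neuroblast-like cells 4 of 7 members tested were higher and 0 lower, against 14.1% and 20.4% of all genes: Hist3h2ba had 550, 611 and 638 CPM in P2 cortex, P7 SVZ and P7 cortex, against 177, 229 and 214 CPM in OPC-like cells (log2 fold change 1.46). Hist3h2a (1.56), Hist1h1c (1.92) and Hist1h2ap (2.55) were the others, and Hist1h2ap had 105, 84.2 and 36.7 CPM, against 14.2, 17.2 and 2.04 CPM. Without P7 SVZ 3 of 4 members tested were higher and 0 lower. Here too members could pass the filter through the neuroblast-like cells alone, so these counts are a description. In excitatory neuron-like cells 0 of 6 members tested were higher or lower, where 15.4% and 11.7% of all genes were, and without P2 cortex or without P15 cortex 1 was lower.

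Division was examined first in OPC-like cells, of which those with at least 3 list UMIs after thinning were called cycling. These were 565 of 1746 cells (32.4%, exact 95% interval 30.2 to 34.6), with 30.8% in P2 cortex, 41.1% in P7 SVZ, 38.7% in P7 cortex, 26.5% in P15 cortex, 15.4% in P60 cortex, 22.1% in P60 WM and 19.2% in P60 GM. The same call marked 14.3% of mature oligodendrocyte-like cells, so the cycling group near the threshold holds cells with a background of list UMIs: 254 OPC-like cells had 2 and 109 had 3. In 6 libraries with enough cells in both states (P60 cortex had too few), 10 of the 61 members passed the filter. Cycling cells had 7 of them higher and 2 lower, against 8.99% and 4.98% of all 8469 genes tested. The members' median log2 fold change was 1.91, against -0.03 over all genes tested. Since the filter keeps genes with enough UMIs in either state, the other members have no call. Some members, such as Hist1h1b below, could pass through the cycling cells alone, so these counts and the median describe the members that passed.

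Hist1h1b, a linker histone gene of proliferating cells, had 69.4, 574, 39.5, 41.0, 0 and 35 CPM in cycling cells of P2 cortex, P7 SVZ, P7 cortex, P15 cortex, P60 WM and P60 GM, against 0, 10.7, 0, 0, 0 and 0 CPM in non-cycling cells. It was seen in non-cycling cells of P7 SVZ only, and its log2 fold change was 5.88 (SE 0.26, adjusted p = 1.02e-49). Hist1h2ap had 467, 590, 145, 465, 13.1 and 61.3 CPM in cycling cells, against 14.2, 17.2, 2.04, 8.28, 0 and 0 CPM in non-cycling cells. It was higher in cycling cells in 6 of 6 libraries, with a log2 fold change of 5.37 (SE 0.17, adjusted p = 5.88e-66), and the 4 early libraries lay above both P60 ones. Hist1h2ae had 64.1, 223, 10.8, 29.0, 13.1 and 17.5 CPM, against 7.09, 12.9, 2.04, 3.55, 0 and 12.9 CPM (log2 fold change 3.65, SE 0.25, 6 of 6 libraries). The H1 gene Hist1h1c had 58.7, 85.5, 52.9, 72, 118 and 96.3 CPM in cycling cells, against 10.6, 18.2, 18.4, 30.7, 50.8 and 19.4 CPM in non-cycling cells (log2 fold change 1.75, SE 0.19). Its groups did not overlap. Here and below, the share of all genes tested whose groups did not overlap is not given.

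Hist1h4d, Hist1h1e and Hist1h4i were each higher in cycling cells in 5 of 6 libraries, with log2 fold changes of 2.01 (SE 0.22), 1.96 (SE 0.16) and 1.85 (SE 0.41). Hist1h4d had 205 CPM in cycling cells of P7 SVZ, against 53.6 CPM in its non-cycling cells, and at most 32.0 and 10.2 CPM in those groups elsewhere. Hist1h1e had 469 CPM in cycling cells of P7 SVZ, against 128 CPM in non-cycling ones.

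Both Hist3 genes went the other way. Hist3h2a had 66.7, 38.4, 43.0, 58.0, 131 and 175 CPM in cycling cells, against 78.0, 67.6, 104, 124, 162 and 232 CPM in non-cycling cells, and was lower in 6 of 6 libraries (log2 fold change -0.84, SE 0.14, adjusted p = 3.74e-07). Hist3h2ba had 158, 123, 105, 188, 341 and 236 CPM in cycling cells, against 177, 229, 214, 285, 294 and 174 CPM in non-cycling cells. It was lower in 4 of 6 libraries (log2 fold change -0.60, SE 0.11, adjusted p = 1.56e-06) and higher in P60 WM and P60 GM. Hist1h2bc did not pass (log2 fold change 0.09, SE 0.18, adjusted p = 0.81). These levels are of the RNA the kit can prime and do not test whether a gene is replication-dependent, so the set is called here by its gene clusters. Without P7 SVZ 7 members were tested, with 4 higher (Hist1h1b, Hist1h2ap 5.64, Hist1h1e 2.22 and Hist1h1c 1.53) and both Hist3 genes lower, against 7.12% and 3.09% of all genes.

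**Figure D2:**
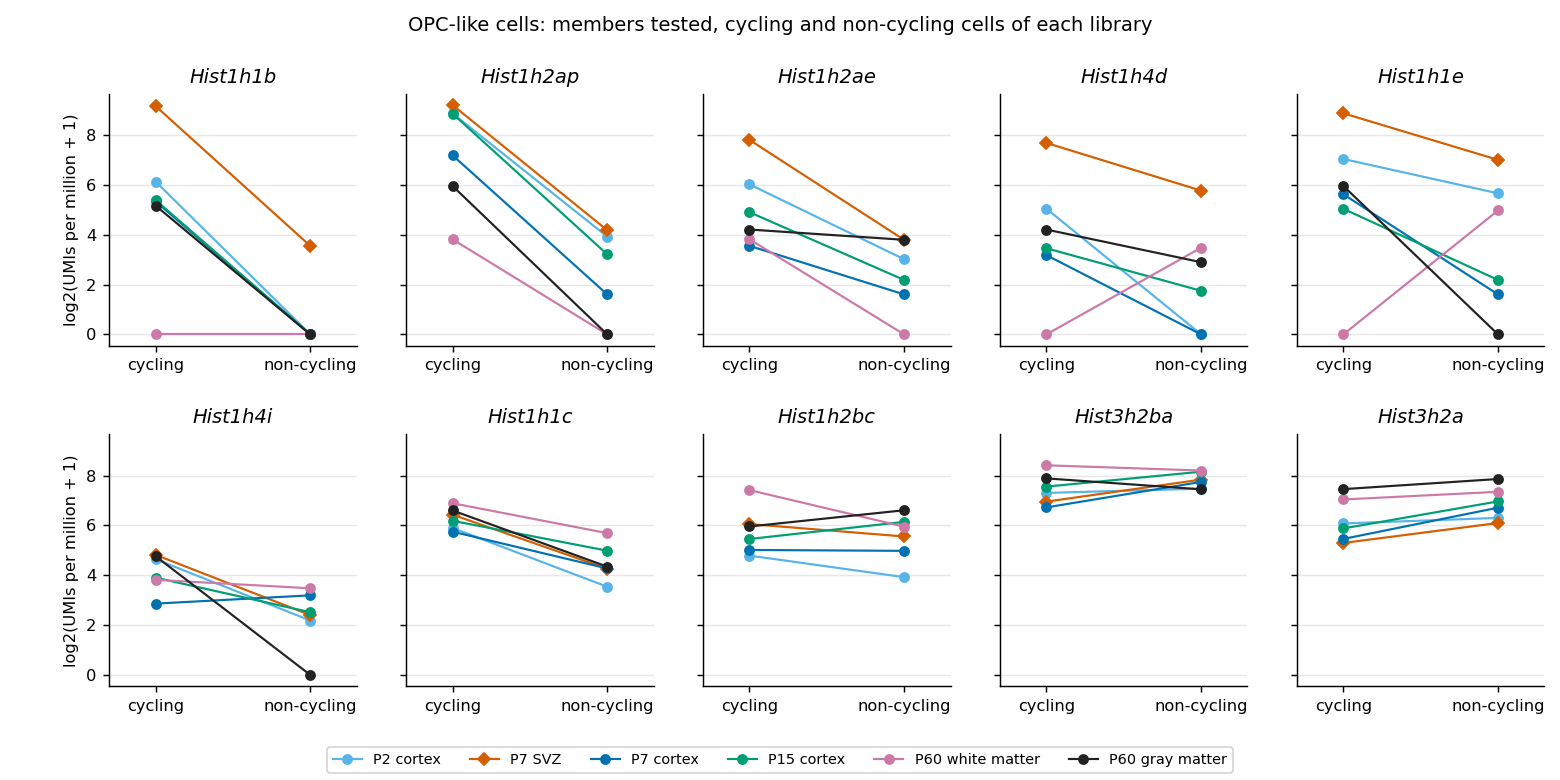
Each panel is 1 of the 10 members tested in OPC-like cells, and each line joins the cycling to the non-cycling cells of 1 library, as log2(CPM + 1). Lines fall to the right for Hist1h1b, Hist1h2ap, Hist1h2ae and Hist1h1c, and rise in 6 of 6 libraries for Hist3h2a.

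Summed over all members, cycling OPC-like cells had 1151 CPM in P2 cortex, 3167 in P7 SVZ, 532 in P7 cortex, 994 in P15 cortex, 813 in P60 WM and 831 in P60 GM, against 369, 681, 408, 566, 660 and 568 CPM in non-cycling cells. The sum was higher in cycling cells in each of the 6 libraries. The share of cells with at least 1 member UMI after thinning was 66.7% in cycling cells (exact 95% interval 62.7 to 70.6) and 66.5% in non-cycling cells (62.1 to 70.8), at median depths of 8518 and 6002 UMIs, and 85.9% in mature oligodendrocyte-like cells. Without thinning it was 92.0% in cycling and 92.8% in non-cycling cells. The intervals of the thinned shares overlapped.

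Shares were then taken for single genes. Hist1h2ap was seen after thinning in 31.3% of cycling OPC-like cells of P2 cortex, 26.3% in P7 SVZ, 16.1% in P7 cortex, 21.8% in P15 cortex, 5.88% in P60 WM and 5% in P60 GM, against 0 to 3.29% in non-cycling cells of these libraries. The exact 95% intervals of the states did not overlap in the 4 early libraries, where the lower bounds of cycling cells were 18.7, 20.7, 9.98 and 14.9% and the upper bounds of non-cycling cells 8.04, 7.87, 5.36 and 7.51%. They overlapped in P60 WM (0.149 to 28.7% against up to 15.4%) and P60 GM (0.127 to 24.9% against up to 12.3%). In mature oligodendrocyte-like cells, a class that should lack it, the shares were 0 to 1.09% in P15 cortex, P60 cortex and P60 WM, and the other libraries have no such value. Hist1h1b was seen in 25.9% of cycling cells of P7 SVZ and in 4.24 to 6.25% of those of the other early libraries, in 1.57% of non-cycling cells of P7 SVZ, and in 0 cells of the mature class. Hist1h2ae was seen in 1.69% of cycling and 1.49% of non-cycling cells of P7 cortex, and in 0% and 3.57% of those of P60 GM.

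The rise with division lay in the cells with the most cell-cycle UMIs. Over all libraries, OPC-like cells thinned to 2000 UMIs had on average 1.21 member UMIs with 0 list UMIs (469 cells), 1.18 with 1 to 2 (712 cells), 1.23 with 3 to 4 (167 cells), 1.11 with 5 to 9 (124 cells) and 1.24 with 10 to 19 (103 cells). With 20 or more list UMIs the mean was 7.48 (171 cells). Without P7 SVZ these means were 1.13, 1.15, 1.14, 0.872, 1.05 and 2.69, the last over 97 cells. In that last bin the mean was 4.27 in P2 cortex (15 cells), 13.8 in P7 SVZ (74 cells), 1.74 in P7 cortex (42 cells) and 3.37 in P15 cortex (35 cells). No bin below 20 list UMIs had a pooled mean above 1.24.

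**Figure D3:**
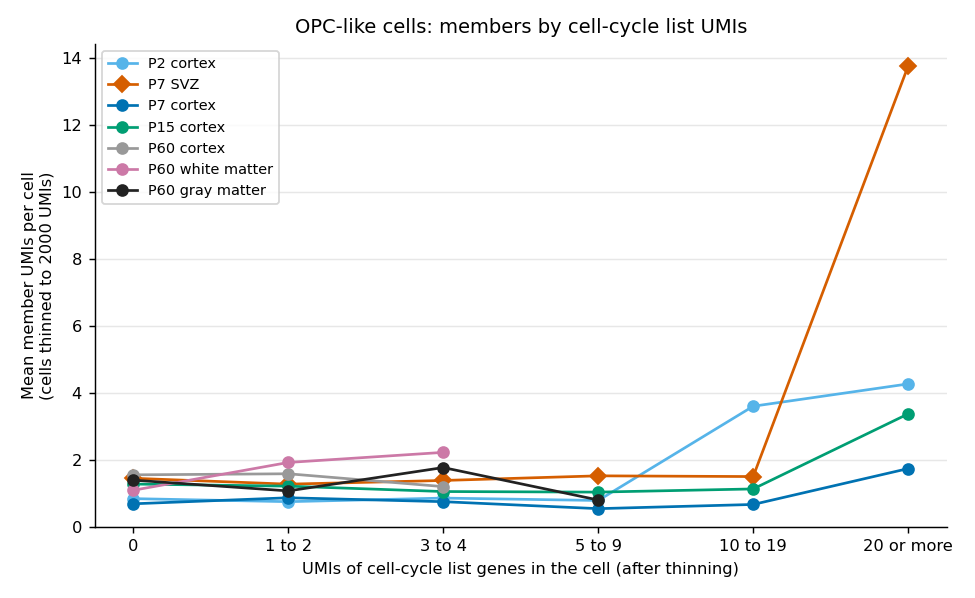
Mean member UMIs per OPC-like cell (vertical, cells thinned to 2000 UMIs) against the number of cell-cycle list UMIs in the cell (horizontal), 1 line for each library with a diamond for P7 SVZ. In the bin of 20 or more list UMIs P7 SVZ reaches 13.8 and P7 cortex 1.74; bins of few cells, such as 10 to 19 in P2 cortex with 5 cells, are noisy.

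Cycling OPC-like cells were then split by which list had more UMIs. The 4 early libraries had enough cells, with 24 S-leaning and 21 G2/M-leaning cells in P2 cortex, 111 and 101 in P7 SVZ, 50 and 65 in P7 cortex, and 74 and 46 in P15 cortex. Of 11 members tested, 0 were higher and 9 lower in S-leaning cells, against 3.37% and 5.6% of all 7726 genes tested. The members' median log2 fold change was -2.51, against 0.01 over all genes. Members could pass the filter through the G2/M-leaning cells alone, so these counts and the median describe the members that passed. Although histone genes are known as S-phase genes, the UMIs counted here lay in the cells with more G2/M than S list UMIs.

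Hist1h2ap had 27.2, 123, 93.9 and 166 CPM in S-leaning cells of P2 cortex, P7 SVZ, P7 cortex and P15 cortex, against 853, 1038, 185 and 855 CPM in G2/M-leaning cells (log2 fold change -2.64, SE 0.17, adjusted p = 1.39e-21). The highest S-leaning value was below the lowest G2/M-leaning one. Hist1h1c had 13.6, 16.3, 11.5 and 21 CPM, against 99.8, 150, 82.4 and 133 CPM (log2 fold change -2.97, SE 0.22), and its groups did not overlap either. The same held for Hist1h2bc, with 6.80, 20.4, 9.16 and 21 CPM, against 44.9, 111, 45.8 and 58.8 CPM (-2.20, SE 0.25), and for Hist1h4i, with at most 8.17 CPM in S-leaning cells, against at least 9.16 CPM in G2/M-leaning cells (-2.82, SE 0.44). Hist1h2bc had not differed between cycling and non-cycling cells as a whole.

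Hist1h1b had 6.80, 131, 20.6 and 5.72 CPM in S-leaning cells, against 125, 991, 53.4 and 85.9 CPM in G2/M-leaning cells (-2.89, SE 0.17). It was lower in S-leaning cells in 4 of 4 libraries, and the groups overlapped because P7 SVZ was high in both. Hist1h2ae (-3.18, SE 0.22) and Hist1h1e (-2.14, SE 0.17) were lower in 4 of 4 libraries as well, and Hist1h4d (-2.51, SE 0.23) in 3 of 4. Hist1h4h (-1.88, SE 0.33) had 27.6 CPM in S-leaning and 106 CPM in G2/M-leaning cells of P7 SVZ and at most 6.80 CPM elsewhere, and was lower in S-leaning cells in 2 of 4 libraries. Hist3h2ba had 143, 129, 119 and 204 CPM in S-leaning cells, against 170, 113, 97.7 and 170 CPM in G2/M-leaning cells, and did not pass (log2 fold change 0.16, SE 0.14, adjusted p = 0.58), nor did Hist3h2a (-0.15, adjusted p = 0.78). Without P7 SVZ 0 of 9 members tested were higher and 7 lower in S-leaning cells, the 9 of the full test without Hist1h4d and Hist1h4h, against 1.45% and 3.79% of all genes.

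**Figure D4:**
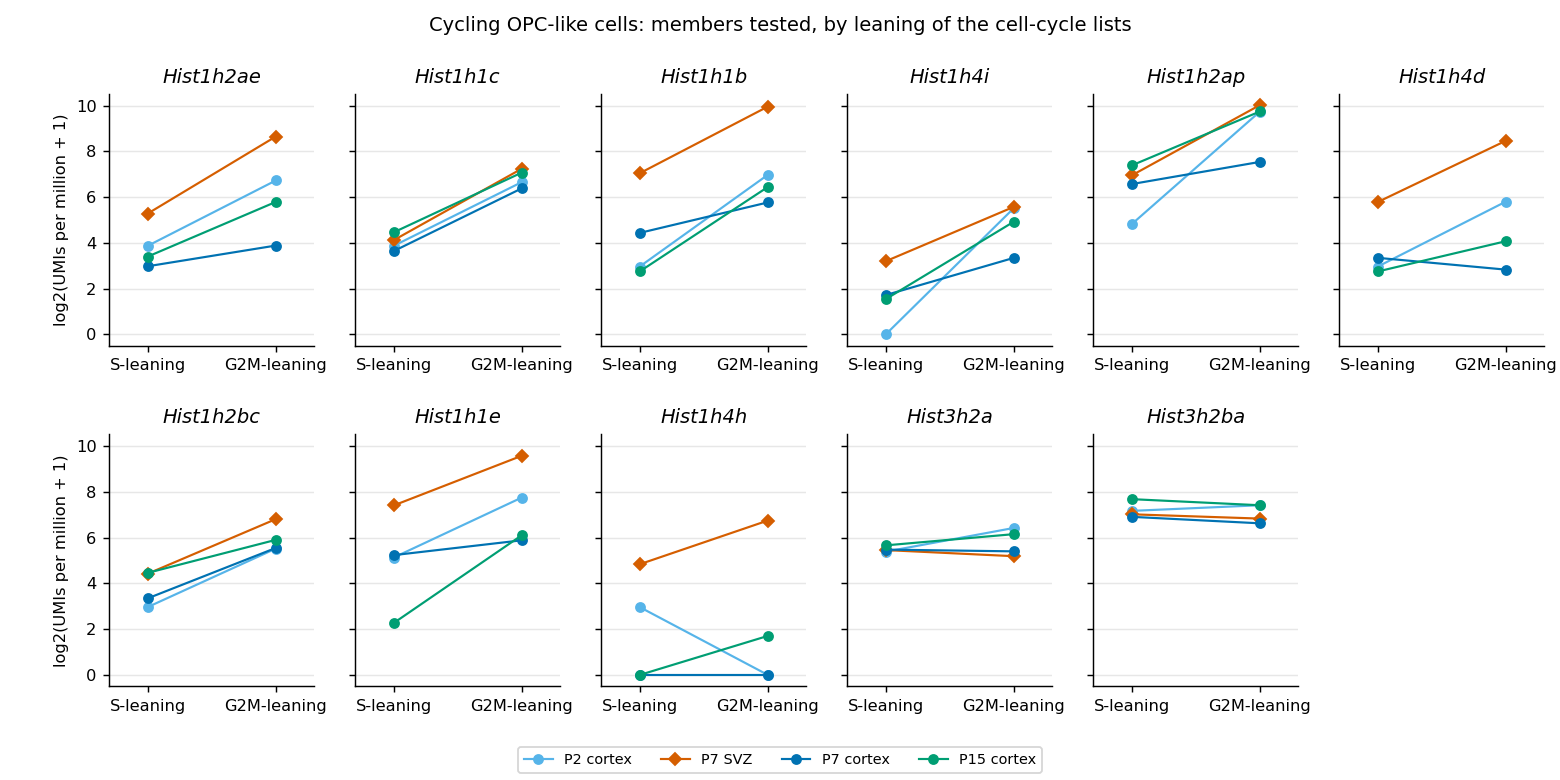
Each panel is 1 of the 11 members tested in cycling OPC-like cells, and each line joins S-leaning to G2/M-leaning cells of 1 of the 4 early libraries, as log2(CPM + 1). Hist1h2ap, Hist1h1c, Hist1h2bc and Hist1h4i rise to the right in 4 of 4 libraries without overlap, while Hist3h2ba and Hist3h2a stay within their spread.

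The leaning groups also differed in list UMIs, with medians of 5, 7, 7 and 6 in S-leaning cells, against 25, 26, 30 and 31 in G2/M-leaning cells of P2 cortex, P7 SVZ, P7 cortex and P15 cortex. Median depths were 6306.5, 8631, 9011 and 6758.5 UMIs, against 9687, 10135, 9487 and 9317.5. After thinning, the mean member UMIs per cell were 0.75, 1.77, 0.62 and 0.973 in S-leaning cells, against 4.05, 9.87, 1.38 and 2.98 in G2/M-leaning cells. Among cells with like list UMIs in the early libraries, S-leaning cells had 1.15 member UMIs and G2/M-leaning cells 1.03 at 3 to 4 list UMIs (96 and 31 cells). At 5 to 9 list UMIs the means were 0.886 and 1.95 (88 and 22 cells), and at 10 to 19 they were 1.06 and 2.08 (65 and 26 cells). In P7 cortex the last bin ran the other way, with 0.786 in 14 S-leaning and 0.375 in 8 G2/M-leaning cells. The part of the number of list UMIs in the phase result was not tested beyond these bins. Where cycling cells of all classes were pooled by library, 0 of 31 members tested were higher and 26 lower in S-leaning cells, against 5.45% and 5.46% of all genes, among them Hist1h3c (-2.74) and Hist1h2ab (-2.69). That fit had no term for class, so its S-leaning and G2/M-leaning sums may differ in cell type as well. Of all cycling cells 985 were of unnamed clusters, 744 neuroblast-like and 565 OPC-like. Members could again pass the filter through the G2/M-leaning cells alone.

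Hist1h1b and Hist1h2ap were the members called most widely in other dividing classes. As in OPC-like cells, members could pass the filter through the cycling cells alone, so the counts below describe the members that passed. In astrocyte-like cells 2 of 13 members tested were higher in cycling than in non-cycling cells, against 2.85% of all genes: Hist1h2ap (log2 fold change 2.60, SE 0.35) and Hist1h1b (1.98, adjusted p = 0.0096). Without P2 cortex, P7 SVZ or P7 cortex 1 was. In microglia-like cells 3 of 12 were higher, against 1.76%: Hist1h1b (5.08, SE 0.62), Hist1h2ap (2.12) and Hist1h2ae (1.98, adjusted p = 0.043). Without P7 SVZ or P7 cortex 1 was. In neuroblast-like cells 2 of 11 were higher, against 2.90%: Hist1h1b (3.80, SE 0.65) and Hist1h2ap (1.66, adjusted p = 0.019). That count was 0 without P7 cortex, 1 without P2 cortex or P60 WM, and 3 without P7 SVZ, where 1 member was also lower. In these 3 classes 0 members were lower with all libraries, against 1.88%, 0.372% and 1.13% of all genes in the same order. In neural precursor-like cells 0 of 9 members tested were called by edgeR, and 0 had an unadjusted p under 0.05. No gene was called in that class. Without P7 SVZ 0 of 6 members tested were called.

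Some clusters were led by cell-cycle genes. Cluster 18, an unnamed cluster with Pclaf and Prc1 among its leading genes and 545 cells in P7 SVZ, 89.4% of them cycling, had 6708 member CPM. Cluster 0, an unnamed cluster with Pclaf and Pbk among its leading genes, had 1523 CPM in P2 cortex, 4035 in P7 SVZ (15 cells), 921 in P7 cortex, 1203 in P15 cortex and 1035 in P60 WM. Cluster 7, OPC-like cells led by Prc1, Ccnb1 and Cenpa, had 1898 CPM in P2 cortex (17 cells), 6252 in P7 SVZ (81 cells), 742 in P7 cortex (54 cells) and 1689 in P15 cortex (45 cells). In clusters 0 and 7 P7 SVZ lay above the other libraries. Cluster 16, neuroblast-like cells also led by cell-cycle genes, had 1736 CPM in P7 cortex (221 cells) and 1589 in P60 WM (49 cells).

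Genes that handle histone mRNA and protein were compared in the same fits, where 8.99% of all genes were higher and 4.98% lower in cycling OPC-like cells. Among 18 tested genes of histone mRNA processing and its control, 9 were higher in cycling OPC-like cells and 1 lower: Ccne2 (log2 fold change 3.66) and Ccne1 (1.97), the cyclins E of the G1/S transition, Nasp (1.71), an H3-H4 chaperone also on the next list, and Slbp (1.70, SE 0.14), the stem-loop binding protein, against Cpsf3 (-0.53), the nuclease of 3' end cleavage. Among 18 tested histone chaperones 12 were higher and 0 lower, led by Asf1b (6.28), which hands H3-H4 to assembly factors, Chaf1b (4.57) and Chaf1a (2.91), subunits of the replication-coupled assembly factor CAF-1, and the helicase subunit Mcm2 (2.80). Among 11 tested replication-independent histones 8 were higher and 1 lower, with Cenpa, the centromeric H3 variant, at 5.34, H2afx at 2.49, H1fx at 1.89 and H2afz at 1.86, and H2afj at -0.30.

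In S-leaning against G2/M-leaning cells these lists parted, beside 3.37% of all genes higher and 5.6% lower. Of 17 processing genes tested 0 were called, and Slbp had a log2 fold change of 0.25 (SE 0.16, adjusted p = 0.41). Of 18 chaperones 2 were higher (Mcm2 1.15 and Chaf1b 0.97) and 2 lower (Hjurp -1.71, the chaperone of Cenpa, and Asf1b -1.42). Of 11 replication-independent histones 0 were higher and 7 lower, among them Cenpa (-5.79), H2afx (-2.61), H1f0 (-2.31) and H1fx (-2.25). Most of the replication-independent histones tested were thus lower in S-leaning cells, as were most of the clustered members tested.

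Between stages, 2 of 10 members tested differed in OPC-like cells, 1 in each direction, against 3.06% higher and 3.58% lower of all 9752 genes. Hist1h2ap had 17.3, 11 and 16.6 CPM in adult P60 cortex, P60 WM and P60 GM, against 177, 289, 68.0 and 161 CPM in early P2 cortex, P7 SVZ, P7 cortex and P15 cortex. Every adult value was below every early one (log2 fold change -3.71, SE 0.51, adjusted p = 0.0040). Hist3h2a had 193, 171 and 204 CPM in adult, against 82.2, 53.4, 68.4 and 103 CPM in early OPC-like cells, with every adult value above (log2 fold change 1.12, SE 0.23, adjusted p = 0.018). Adult libraries also had fewer cycling OPC-like cells, 15.4 to 22.1%, against 26.5 to 41.1% in early ones, and both genes differed with division as given above; Hist1h2ap did not pass the filter in non-cycling cells, so the part of division in its stage result was not tested.

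Hist1h1b had 0, 0 and 6.62 CPM in adult, against 24.8, 277, 18 and 13.8 CPM in early OPC-like cells, without overlap, and did not pass (adjusted p = 0.061). Hist1h2bc had 106, 102 and 87.7 CPM in adult, against 17.2, 55.8, 28.7 and 68.2 CPM in early cells, also without overlap (log2 fold change 0.998, SE 0.36, adjusted p = 0.12). Hist3h2ba had 304, 355 and 219 CPM in adult, against 182, 182, 168 and 250 CPM in early cells (adjusted p = 0.32). The members' median log2 fold change was -1.31, against 0.01 over all genes tested, which describes only the members that passed the filter. Without P60 GM 0 members were called, without P60 cortex 0 were higher and 1 lower, without P7 SVZ 1 was higher and 2 lower, against 3.48% and 3.93% of all genes, as was the case without P7 cortex, and without P15 cortex 2 were higher and 3 lower. On simulated counts of this design, the test recovered 15.8% of genes changed by 1 on the log2 scale and 77.6% of those changed by 2. The division genes Top2a (-2.73, adjusted p = 0.0070) and Mki67 (-2.15, adjusted p = 0.012) were lower in adult OPC-like cells, and Pcna did not pass (-0.06, adjusted p = 0.95). Of 18 chaperones 6 were lower, led by Chaf1a (-3.03), Chaf1b (-2.42), Asf1b (-2.40) and Nap1l1 (-1.12), of 17 processing genes 1 was (Nasp -1.08), and of 11 replication-independent histones 3 were (H1fx -1.57, H2afz -1.51 and H2afx -1.15), with 0 higher in each list, beside the 3.06% and 3.58% of all genes.

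Within non-cycling OPC-like cells 3 members passed the filter (Hist1h2bc, Hist3h2a and Hist3h2ba) and 0 were called by edgeR between adult and early libraries, where 0.676% of all genes were higher and 0.56% lower. DESeq2 also called 0, and 1 member, Hist3h2a, had an unadjusted p under 0.05 (log2 fold change 1.02, adjusted p = 0.084). Without P15 cortex 1 member was higher, and without P7 SVZ 0 of 3 were called. In non-cycling astrocyte-like cells 0 of 6 members were called, against 0.219% and 0.0729% of all genes, with 3 at an unadjusted p under 0.05. Without P15 cortex 4 of 5 members tested were higher in adult cells and 0 lower, against 13.3% and 11.8% of all genes: Hist1h4i (log2 fold change 4.11), Hist2h3c1 (2.43), Hist1h2bc (2.22) and Hist1h1c (1.42). In microglia-like cells 0 of 6 were called, as was 0% of all genes. Without P7 SVZ 0 of 8 members were called in astrocyte-like and 0 of 7 in microglia-like cells.

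SVZ and cortex can be compared at P7, with 1 library on each side and no test. Ratios are given with exact 95% intervals that cover counting error only, and a member with at least 20 UMIs in both sums together counts as different at 2-fold with an interval that excludes 1. In OPC-like cells the members had 1847 CPM in P7 SVZ, against 459 CPM in P7 cortex, a ratio of 4.02 (3.78 to 4.29). Of 33 members with enough UMIs 28 were higher in SVZ and 0 lower, against 9.64% and 6.44% of all genes. Members enter by the UMIs of both sums together, and several with 0 to 3 UMIs in cortex entered through SVZ alone, so these counts are a description. In cycling OPC-like cells the ratio was 5.96 (5.47 to 6.49), with 27 of 30 members higher and 0 lower, against 8.87% and 6.54% of all genes. In non-cycling OPC-like cells it was 1.67 (1.42 to 1.97), with 2 of 6 members higher and 0 lower, against 8.64% and 6.92%. The OPC-like cells of the libraries lay mostly in different clusters, 84.1% in cluster 27 for SVZ, and 52.7% in cluster 13 and 29.9% in cluster 12 for cortex.

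Most of the largest ratios were those of genes with 0 to 3 UMIs in cortex. Hist1h3c, an H3 gene, had 113 UMIs in SVZ and 1 in cortex (ratio 60.2, 10.6 to 2397), Hist1h1d 202 and 3 (35.9, 12.1 to 175), Hist1h2bb 61 and 1 (32.5), and Hist1h1a 130 and 3 (23.1). Hist1h4h had 185 UMIs in SVZ and 0 in cortex, at least 32.8-fold higher against a floor of 3 UMIs. Hist1h2ab was at least 26.4-fold and Hist1h3e at least 24.8-fold higher by the same floor. Among genes with more cortex UMIs, Hist1h4d had 123 CPM in SVZ, against 4.51 CPM in cortex (27.3, 15.2 to 55.1), Hist1h2ae 112 against 6.96 CPM (16.1, 9.94 to 27.8), Hist1h1b 277 against 18 CPM (15.4, 11.4 to 21.3) and Hist1h1e 283 against 25.4 CPM (11.1, 8.63 to 14.6). Hist1h2ap, with 289 against 68.0 CPM, had a ratio of 4.25 (3.61 to 5.02). Some members of high count stayed under 2-fold: Hist3h2ba had 182 CPM in SVZ, against 168 CPM in cortex (1.09, 0.965 to 1.23), Hist1h1c a ratio of 1.43, Hist1h2bc 1.95 and Hist3h2a 0.781.

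**Figure D5:**
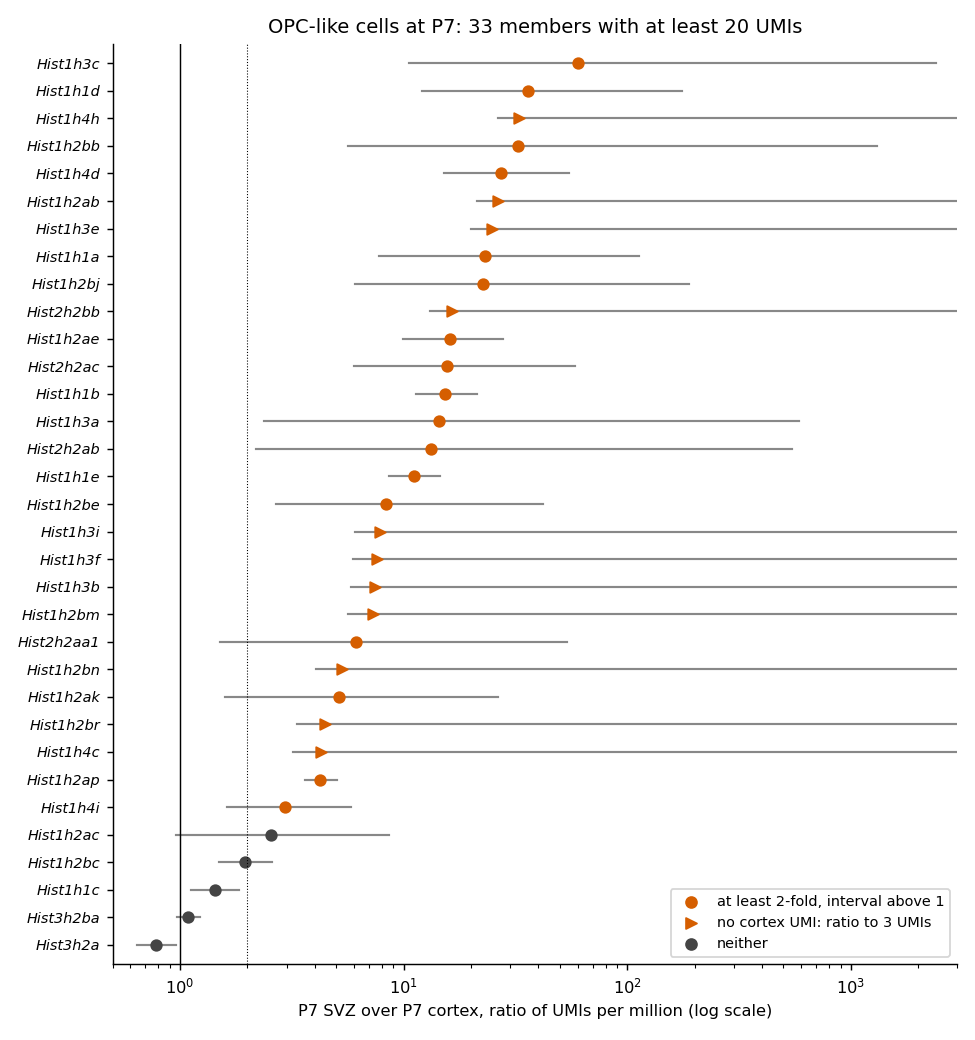
Ratio of CPM in OPC-like cells, P7 SVZ over P7 cortex (horizontal, log scale), for the 33 members with at least 20 UMIs, with exact 95% intervals of counting error. Triangles mark members with 0 cortex UMIs, placed at the ratio to 3 UMIs; the 28 coloured members are at least 2-fold higher in SVZ, and Hist3h2ba and Hist3h2a lie near 1.

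The difference held inside cluster 7, which both libraries share. There Hist1h1b had 1235 CPM in P7 SVZ, against 70.3 CPM in P7 cortex, Hist1h2ap 1279 against 252 CPM, Hist1h1e 873 against 80.6 CPM and Hist3h2ba 103 against 87.4 CPM. In non-cycling OPC-like cells the 2 members that were higher were Hist1h1e, with 119 UMIs in SVZ and 1 in cortex (62.6, 11 to 2492), and Hist1h4d, with 50 and 0 UMIs, at least 8.76-fold higher.

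Of the other classes with cells in both P7 libraries, 4 more had ratios well above 1. Astrocyte-like cells had 852 CPM in SVZ, against 212 CPM in cortex (4.02, 3.78 to 4.28), with 13 of 22 members higher and 1 lower, against 8.42% and 11.7% of all genes. They lay in different clusters, 98.2% in cluster 36 for SVZ, and 61.9% in cluster 6 and 37.9% in cluster 3 for cortex. Neural precursor-like cells had 1465 against 433 CPM (3.38), with 18 of 22 higher and 1 lower, against 8.16% and 8.25%, and lay in cluster 38 (99.8%) for SVZ and cluster 1 (100%) for cortex. Committed OPC and new oligodendrocyte-like cells had 837 against 441 CPM (1.90, 1.76 to 2.05), with 8 of 15 higher and 0 lower, against 8.4% and 6.28%, and lay mostly in cluster 25 (88.7%) for SVZ, and in clusters 24 (58.1%) and 21 (33.3%) for cortex. Microglia-like cells, of which 98.5% and 96.9% lay in the same cluster 4, had 822 against 477 CPM (1.72), with 8 of 16 higher and 3 lower, against 7.24% and 12.4%. Hist1h1e (25.0 in astrocyte-like and 5.41 in microglia-like cells) and Hist1h4d (35.3 in neural precursor-like and 10.9 in microglia-like cells) were among those higher. Hist2h3c1 was the 1 lower member in astrocyte-like (0.42) and in neural precursor-like cells (0.30), and Hist1h2ac, Hist4h4 and Hist2h2aa1 were lower in microglia-like cells. Excitatory intermediate precursor-like cells, in cluster 9 on both sides, had a ratio of 1.41, with 1 of 5 members higher and 0 lower, against 5.84% and 6.59%. Under a 20% mitochondrial limit that ratio was 2.94, with 11 of 22 higher. Neural precursor-like cells had no such ratio under that limit, so their result was not repeated there. The astrocyte-like cells of P7 SVZ rose from 338 to 485 under it.

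Neuroblast-like cells had 1474 CPM in SVZ, against 1546 CPM in cortex, a ratio of 0.954 (0.911 to 0.999). Of 32 members 6 were higher and 15 lower, against 16% and 15.8% of all genes, and the cells lay in cluster 30 for SVZ and in clusters 15 and 16 for cortex, the last led by cell-cycle genes. Hist1h4h (7.88), Hist1h4d (3.97), Hist1h2ab (3.61), Hist1h3e (3.43), Hist1h2ae (2.15) and Hist1h1e (2.04) were higher in SVZ, while Hist1h1b (0.18), Hist1h2ap (0.21) and Hist1h1c (0.41) were among those lower. Hist1h4d, Hist1h1e and Hist1h2ae were thus higher in SVZ where Hist1h1b and Hist1h2ap were lower, in sums that mix states. Cycling cells made up 27.97% of neuroblast-like cells in P7 SVZ and 67.77% in P7 cortex. Among cycling cells the ratio was 0.884 (0.816 to 0.957), with 3 of 29 members higher and 9 lower. Among non-cycling cells it was 1.18 (0.996 to 1.41), with 3 of 8 higher and 1 lower. The part of division in the ratios of single members was not tested.

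Across all members, the share of a gene's UMIs that came from P7 SVZ had a median of 59.4% and ran to 98.4% for Hist1h2ab. It was 95.5% for Hist1h3c, 89.5% for Hist1h1b, 87.9% for Hist1h4d, 87.6% for Hist1h2ae and 82.0% for Hist1h1e, against 24.2% for Hist3h2ba, 24.1% for Hist3h2a, 21% for Hist1h1c, 20.5% for Hist1h2bc and 8.09% for Hist2h3c1. The median share was 24.1% for the 11 members with AATAAA near their annotated end and 64.0% for the other 50. It was 59.6% for the 18 members whose transcript ended within 50 bases of the stem-loop, 40.7% for the 25 that ran on further and 66.3% for the 18 with no stem-loop found. Some members of the last group, such as Hist1h1b, have 0 annotated bases after the coding part, where no stem-loop could be found. By family it was 82.0% for H1, 75.1% for H3, 59.5% for H4, 59.2% for H2A and 49.3% for H2B. These shares describe 1 library against 6 and were not tested.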

How the data were processed

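The 7 droplet libraries were read from the gene-by-cell UMI count matrices that the authors deposited, which Cell Ranger 3.0.2 wrote per the file headers. The submitters' processing notes name Cell Ranger 3 and mm10. No source used here gives the annotation release or the strand setting. Barcodes with at least 500 genes and at most 10% mitochondrial UMIs were kept, scrublet calls (scanpy 1.11.5, expected rate 0.06) were removed, and cells were clustered (2000 variable genes without histone and cycle genes, 30 components, 15 neighbours, Leiden resolution 1.5) and named "-like" from marker lists, with at least 3 markers. The members, gene lists and markers were chosen with earlier results of these data known, and the rule that scores cluster names and the stricter cycle lists after clusters were seen. Counts were summed over cells per library and group and tested with edgeR 4.0.16 (TMM, filterByExpr, quasi-likelihood, R 4.3.3). Stages were fitted without a block, the other tests with the library as block. DESeq2 1.42.0 was an alternative. Calls have an adjusted p under 0.05. The edgeR steps were tested on simulated counts, where 89.0% of genes changed by 1 on the log2 scale were recovered in the division test. Sums needed at least 20 cells of a class and 15 of a state. Intervals are exact (95%) and cover counting error only. Members named are the 12 with the most UMIs, up to 8 called per direction and comparison, 6 family examples (Hist1h2ap, Hist1h2ae, Hist1h1b, Hist1h1e, Hist1h4d and Hist1h3c), and members past the SVZ rule; list genes are named up to 4 per direction. Gene names come from the files, sequences from GENCODE M21 and RefSeq.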

Additional observations from a re-analysis of the deposited data

Results flagged for a closer look

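Of 58 groups of at least 4 libraries examined, 14 held a library whose gap to its nearest neighbour was large for the group's range (Dixon's test). A group with 1 nonzero library, such as Hist1h1b in non-cycling OPC-like cells, is always flagged, so the number of flags is not set against chance. In 13 of the 14 that library was P7 SVZ, always as the highest value. In cycling OPC-like cells it had 574 CPM of Hist1h1b, 469 CPM of Hist1h1e, 223 CPM of Hist1h2ae and 205 CPM of Hist1h4d, and in non-cycling OPC-like cells 10.7 CPM of Hist1h1b and 53.6 CPM of Hist1h4d. In S-leaning cells it had 131 CPM of Hist1h1b and 54.1 CPM of Hist1h4d, and in G2/M-leaning cells 991 CPM of Hist1h1b, 352 CPM of Hist1h4d and 106 CPM of Hist1h4h. In early postnatal OPC-like cells as a whole it had 277 CPM of Hist1h1b and 123 CPM of Hist1h4d. The remaining value was Hist1h2bc in cycling OPC-like cells of P60 WM, at 170 CPM. These groups share cells and libraries, so the flags are not independent. Hist1h2ap, Hist3h2ba and Hist3h2a had no such library in any of the groups examined.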

How the results depend on the processing

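Calls were counted once per member and comparison, so a member can count several times. Of 474 repeats of 60 such calls, 448 kept the call, 26 lost it and 0 changed direction. Settings in which the member did not pass the filter are not among these repeats. In dividing OPC-like cells 23 of 59 members were higher without a filter on low counts (907 of 16867 genes) and 1 of 5 without the library block (102 of 6358 genes), which is the pairing of these sums, and DESeq2 gave 5 higher and 1 lower of 10; 0 were lower without the block. Between phases 25 of 59 were lower in S-leaning cells without the filter (472 of 15937 genes) and 3 of 8 without the block (132 of 6596 genes). With all classes pooled 26 of 31 were lower (670 of 12272 genes). With stricter cycle lists, added after seeing the data, 6 of 9 members were higher in dividing microglia-like cells (279 of 6752 genes). In dividing neuroblast-like cells 2 of 10 were then higher and 2 lower (367 and 299 of 5106 genes). Between stages 2 of 59 were higher and 10 lower in OPC-like cells without the filter (599 and 648 of 17744 genes). Leaving out 1 library at a time gave the counts below. They show only how far each count moved, since the shares over all genes are not set beside them. Division: 4 to 8 higher in OPC-like, 1 to 2 in astrocyte-like, 1 to 3 in microglia-like, and 0 to 3 higher and 0 to 1 lower in neuroblast-like cells. Stage: 0 to 2 higher and 0 to 3 lower in OPC-like, 0 to 1 higher in non-cycling OPC-like and 0 to 4 in astrocyte-like cells. Class against OPC-like: 2 to 7 higher in astrocyte-like, 2 to 4 in committed, 3 to 7 higher and 0 to 1 lower in mature oligodendrocyte-like, 3 to 5 in microglia-like, 1 to 4 in neural precursor-like, and 0 to 1 lower in excitatory neuron-like cells. For SVZ over cortex, keeping scrublet calls gave ratios of 3.54 in astrocyte-like (0 members lower) and 1.91 in microglia-like cells, and 1 member lower in committed cells. A 20% mitochondrial limit gave 4.31 in astrocyte-like, 1.75 in committed (1 lower), 0.896 in neuroblast-like and 2.94 in excitatory intermediate precursor-like cells (11 higher). It gave no ratio for neural precursor-like cells. Shares of OPC-like cells with a member UMI were 92.0% (cycling) and 92.8% (non-cycling) without thinning. With fewer libraries or no filter the number of genes tested also changes; other causes of these differences were not tested. With 50-base windows 29 members, and not 23, counted as near-identical copies. For the stage tests, no paired analysis was possible because the replicate numbers only name the libraries. The stage test has 3 and 4 libraries, and adult OPC-like sums are small, which limits what it can call.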
